A study of Rattus norvegicus with 24 samples.

Results

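The miR-101 family of the rat consists here of 2 guide strands, rno-miR-101a and rno-miR-101b, taken by exact name from the 677 miRNAs on the array. MicroRNAs are short RNAs that guide a silencing complex to matching sites in messenger RNAs and lower the output of those messages. They recognise their targets mostly through the seed, the stretch from base 2 to base 8, so miRNAs with 1 seed share most of their targets. Members of the miR-101 family are known for repressing Ezh2, the enzyme that places the repressive methyl mark on lysine 27 of histone H3, and Ptgs2, the inducible cyclooxygenase that makes prostaglandins in inflamed tissue. Both targets are active in immune cells and in arthritic joints, but neither was measured here.

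Levels were read in peripheral blood mononuclear cells (PBMC) of female Wistar rats on 24 one-colour arrays, 2 for each of 12 groups. Healthy animals (NOCIA, named NORA in the labels) and animals with collagen-induced arthritis (CIA, named RA) were sampled before therapy (T0). In CIA, a model of rheumatoid arthritis, rats are immunised with bovine type II collagen in Freund's adjuvant. Arthritic animals were also sampled 1 hour and 34 days into each of 4 arms. These were mechanical stimulation with a thin needle under the skin (MS, named AP), methotrexate (MTX), saline as the placebo of MTX (PLA), and isoflurane (ANE) in place of the ether used for blood sampling in the other arms. NOCIA animals were sampled at both of those times as well, without treatment. Ages are not given in the sources used here, and no allele or transgene is named for any group. All MS, MTX, PLA and ANE animals carried the arthritis, so each arm is compared with CIA at T0, and MS and MTX also with PLA at the same time.

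Both members carry the same seed, and the strands are shown so that the seed and the base that separates the members can be seen. Whether a probe of either member also binds the other was not tested, so the levels below are signals of the probes named for each. The mature strands from RefSeq (build GRCr8), both matched by name, are written 5′ to 3′ with the seed in capitals.
rno-miR-101a-3p: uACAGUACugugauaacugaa
rno-miR-101b-3p: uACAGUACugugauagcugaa
Each is 21 bases long, and counted from the 5′ end of miR-101a they differ by the single substitution A16G, outside the seed. The array's unstarred names stand for these 3p strands and its starred names for the 5p passenger strands. Of the 693 mature miRNAs in the RefSeq table, these 2 were the only ones with this seed over bases 2 to 8. A near relative is miR-144, a miRNA of red blood cell precursors, which shares bases 2 to 7 and departs at the last seed base by C8U.
rno-miR-144-3p: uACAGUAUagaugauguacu
The 5p strands are cut from the other side of the same hairpins, and their seeds differ from each other and from that of the guides.
rno-miR-101a-5p: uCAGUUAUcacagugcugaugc
rno-miR-101b-5p: uCGGUUAUcaugguaccgaugc

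The members come from separate genes on separate chromosomes, and the hairpins are shown so that the place of the guide strand in each, here in capitals, can be seen.
Mir101a hairpin: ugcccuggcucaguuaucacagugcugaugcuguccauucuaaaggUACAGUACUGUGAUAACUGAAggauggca
Mir101-2 hairpin: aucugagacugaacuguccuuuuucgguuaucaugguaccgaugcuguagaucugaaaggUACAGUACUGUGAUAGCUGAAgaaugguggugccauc
In GRCr8 the miR-101a guide lies at chr5:121081691-121081711 on the minus strand, within a noncoding RNA gene listed as LOC120102934. The miR-101b guide lies at chr1:236273982-236274002 on the plus strand, within the span of Rcl1, a protein-coding gene whose product acts in ribosomal RNA processing. Whether each hairpin is exonic or intronic was not looked up here.

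The guide strands were measured well on every array and the passenger strands on none. Each guide had 2 probes of 10 spots, and all 480 spots of miR-101a and all 480 of miR-101b over the 24 arrays were well above background, with 0 saturated. The median coefficient of variation between the spots of a probe was 7.75% for miR-101a and 9.47% for miR-101b. The starred strands rno-miR-101a* and rno-miR-101b* were detected on 0 of 24 arrays, and 2 and 1 of their 480 spots passed the background test. Over all arrays 145 to 207 miRNAs were detected per array, with a summed intensity of 137544 to 519917, and 132 miRNAs were detected on all 24.

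The total gene signal of miR-101a, the sum of the total signals of its probes before any scaling, ran from 126 to 449 with a median of 188. That of miR-101b ran from 192 to 1006 with a median of 291. The highest value of each member came from MS at 34 days, replicate 1, which was also the array with the highest summed intensity. As a share of that sum, miR-101a took 0.0744% to 0.133% of an array and miR-101b 0.125% to 0.194%. Because different probes bind with different strength, these figures say nothing about which member is the more abundant.

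All levels below are total gene signals on the log2 scale, after each array was scaled to 1 common 75th percentile of the 132 miRNAs detected everywhere. On this scale miR-101a ran from 7.26 to 8.12 over the 24 arrays and miR-101b from 7.97 to 8.84, a 1.81-fold and a 1.82-fold range. Both were among the steadier miRNAs. The SD over the arrays was 0.20 for miR-101a and 0.17 for miR-101b, which placed them 23rd and 16th from the lowest among the 132 miRNAs, whose median SD was 0.31. The SD within groups was 0.23 for miR-101a and 0.15 for miR-101b, against a median of 0.28, so for miR-101a replicates of 1 group differed as much as arrays overall.

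Before therapy, arthritis was not accompanied by a detectable difference in either member. The level of miR-101a (log2) was 7.46 and 7.52 in NOCIA and 7.85 and 7.26 in CIA, so the arthritic pair lay on both sides of the healthy pair. miR-101b was at 8.06 and 8.20 in NOCIA and at 8.36 and 7.97 in CIA, and again the groups overlapped. CIA minus NOCIA was 0.07 for miR-101a (SE 0.23, 95% confidence interval -0.43 to 0.57, limma adjusted p = 0.980, n = 2 and 2). For miR-101b it was 0.04 (SE 0.17, interval -0.32 to 0.39, adjusted p = 0.980). In this comparison, which lies within 1 slide, 0.952% of the 210 miRNAs tested passed an adjusted p under 0.05. Changes of miR-101b beyond 1.31-fold up or 0.801-fold down thus lay outside the interval, and for miR-101a the bounds were 1.49-fold and 0.740-fold. One CIA array, replicate 1, was the higher one in both members.

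In healthy animals left untreated neither member passed the test at either later time. miR-101a was at 7.80 and 7.66 at 1 hour and at 7.58 and 7.48 at 34 days. Its differences from NOCIA at T0 were 0.24 (SE 0.23, adjusted p = 0.926) and 0.05 (SE 0.23, adjusted p = 0.977). The 1 hour pair lay above the T0 pair, but across slides. miR-101b was at 8.12 and 8.31 at 1 hour and at 8.35 and 8.35 at 34 days. The 34 day pair differed by less than any other pair and lay above both T0 arrays, with a difference of 0.22 (SE 0.17, interval -0.14 to 0.57, adjusted p = 0.790) within 1 slide. At 1 hour the difference was 0.08 (adjusted p = 0.995). Of the miRNAs tested, 2.38% were called at 1 hour and 0.952% at 34 days.

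**Figure D1:**
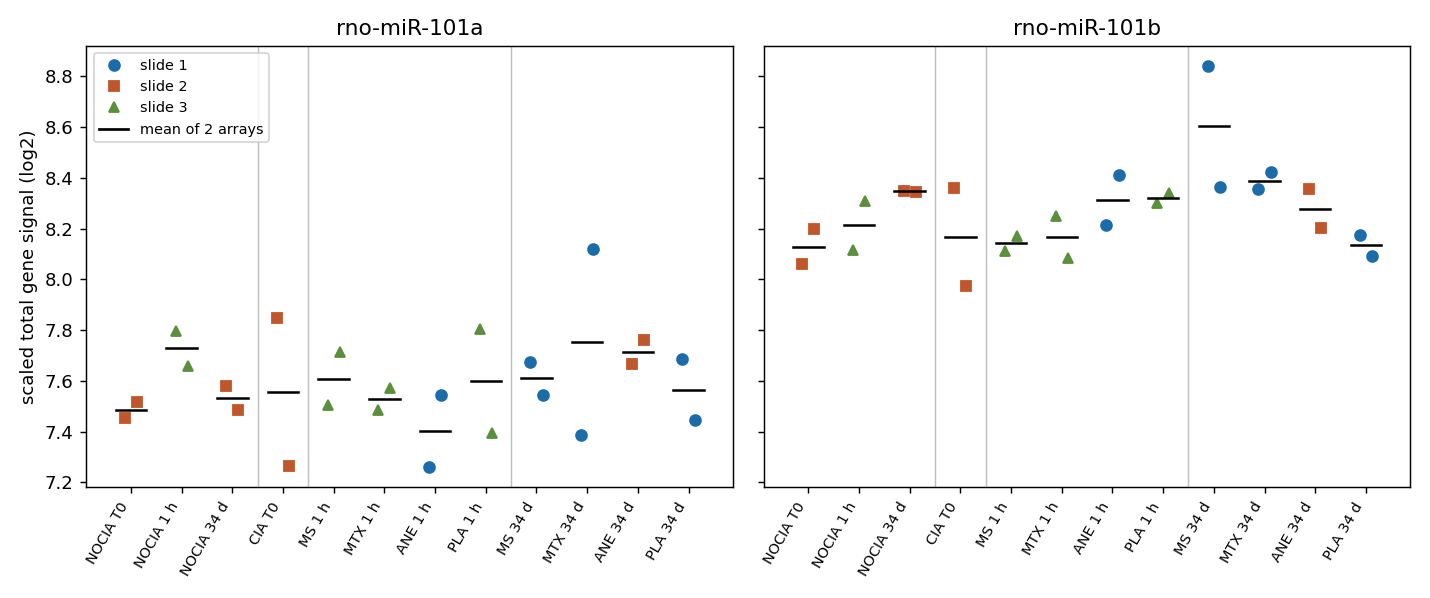
Scaled total gene signal (log2) of rno-miR-101a and rno-miR-101b on each of the 24 arrays, by group, with the mean of the 2 arrays as a bar and the slide as colour and symbol. miR-101a arrays lie between 7.26 and 8.12 with wide pairs in CIA T0 and MTX 34 d, and the highest miR-101b array, at 8.84, is from MS 34 d.

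An hour into therapy neither member passed the test in any arm. Under MS miR-101a stood at 7.51 and 7.71 and under MTX at 7.49 and 7.57. Under ANE it was at 7.26 and 7.54 and under PLA at 7.80 and 7.40. All 4 pairs lay inside the span of the CIA T0 arrays except for the lower ANE array, and the differences from CIA T0 ran from -0.15 (ANE) to 0.05 (MS), each with an SE of 0.23. The smallest adjusted p among these 4 was 0.704. All 4 arms at 1 hour lay on other slides than CIA T0, so group and slide cannot be told apart in these differences. For miR-101b the arrays were at 8.11 and 8.17 under MS and at 8.25 and 8.08 under MTX. Under ANE it was at 8.21 and 8.41 and under PLA at 8.30 and 8.34. The differences from CIA T0 ran from -0.02 (MS) to 0.15 (PLA), with an SE of 0.17, and every pair overlapped the CIA T0 span.

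Against the placebo at 1 hour, on the same slide, miR-101b was lower under MS by 0.18 (SE 0.17, interval -0.54 to 0.18, adjusted p = 0.789) and under MTX by 0.15 (SE 0.17, adjusted p = 0.884). The arrays of both arms lay below both PLA arrays, by amounts within the error, and the sign for MS turned under 6 other processings, up to 0.65 with the percentile taken over all miRNAs. The same differences of miR-101a were 0.01 and -0.07. PLA minus NOCIA at 1 hour was -0.13 for miR-101a and 0.11 for miR-101b (both adjusted p = 0.990). The share of all miRNAs called was 0.476% for ANE, 0.952% for PLA and 1.43% for MTX against CIA T0, 0.952% for MS against PLA, and 0% for MS against CIA T0, MTX against PLA and PLA against NOCIA. In those last 3 comparisons 27, 5 and 4 of 210 miRNAs had an unadjusted p under 0.05, with neither member among them.

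At 34 days the highest mean level of miR-101b was that of MS, 8.60. The mean of miR-101a there, 7.61, was below those of MTX (7.75) and ANE (7.71) at the same time. miR-101b was at 8.84 and 8.36 under MS. It was at 8.36 and 8.42 under MTX, at 8.36 and 8.20 under ANE, and at 8.18 and 8.09 under PLA. Both MS arrays thus lay above both CIA T0 arrays and both PLA arrays, the second of them by less than 0.01 over the higher CIA array. The groups did not overlap in 6 of 18 comparisons for miR-101b and in 2 for miR-101a. Between 2 arrays and 2 others an exact two-sided test gives such a separation p = 0.333, so by itself it is no sign of a difference. The share over all miRNAs was not counted. MS minus CIA T0 was 0.44 (SE 0.17, interval 0.08 to 0.79, a 1.35-fold difference), with an unadjusted limma p of 0.0200 and an adjusted p of 0.0596, n = 2 and 2. This comparison lies across slides, so group and slide cannot be told apart in it. MS minus PLA, within 1 slide, was 0.47 (SE 0.17, interval 0.11 to 0.83, 1.38-fold), with an unadjusted p of 0.0138 and an adjusted p of 0.0701. Both differences missed the threshold over the 210 miRNAs, and both intervals stayed under a 2-fold difference.

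The background in MS at 34 days was broad. Against CIA T0, 19% of the miRNAs tested were called and 48.6% had an unadjusted p under 0.05, and against PLA 0% were called and 40% had one. The median difference over all 210 miRNAs was 0.16 against CIA T0 and 0.21 against PLA, so the middle of the scaled distribution lay above 0 in both comparisons. Relative to these medians the miR-101b differences are smaller than the values above. The summed intensity moved with the group as well, at 305171 and 519917 in MS at 34 days, 163860 and 167322 in CIA T0, and 181337 and 191876 in PLA at 34 days. Its part in the result was not tested. The array with the higher sum was also the one with miR-101b at 8.84. Without it, MS minus CIA T0 was 0.20 (adjusted p = 0.551) and MS minus PLA 0.23 (adjusted p = 0.585). Without the other MS array they were 0.67 (adjusted p = 0.0130) and 0.71 (adjusted p = 0.0170).

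The same comparisons gave miR-101a small differences. It was at 7.68 and 7.55 under MS at 34 days, between the 2 CIA T0 arrays. MS minus CIA T0 was 0.05 (SE 0.23, interval -0.45 to 0.56, adjusted p = 0.917) and MS minus PLA 0.05 (SE 0.23, interval -0.46 to 0.55, adjusted p = 0.927). The sign of these differences changed between the scalings, and neither passed the test except with no scaling, where they were 1.25 (adjusted p = 0.0102) and 1.09 (adjusted p = 0.0199).

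The probes of each member gave like differences between groups, though their levels were not the same. The 2 probes of miR-101b gave MS minus CIA T0 differences of 0.39 and 0.47 and MS minus PLA differences of 0.41 and 0.50. Those of miR-101a gave 0.05 and 0.06, and 0.01 and 0.07. The gap between the probes of 1 member, in log2, had a mean over the 24 arrays of 0.22 for miR-101a and 0.77 for miR-101b. Its SD over the arrays was 0.06 for miR-101a and 0.05 for miR-101b. The spread of this gap was thus small beside the SD of 0.23 and 0.15 between replicate arrays. Both probes of a member read the same RNA on the same array and are not replicates of a group.

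Under MTX at 34 days the miR-101a arrays differed more than those of any other group, at 7.39 and 8.12. The latter was the highest miR-101a value of the series, and its miR-101b level, 8.42, was close to that of its partner. MTX minus CIA T0, across slides, was 0.20 for miR-101a (SE 0.23, interval -0.31 to 0.70) and 0.22 for miR-101b (SE 0.17, interval -0.13 to 0.58), both with an adjusted p of 0.790. MTX minus PLA was 0.19 and 0.25, both with an adjusted p of 0.922. MS minus MTX was -0.14 for miR-101a (adjusted p = 0.725) and 0.21 for miR-101b (adjusted p = 0.445). That last difference came from 1 array. Without the first MS array it was -0.02. In these 3 comparisons 0% of the miRNAs tested were called, and 15, 5 and 37 of 210 had an unadjusted p under 0.05.

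In the remaining arms at 34 days no member passed the test against CIA T0. miR-101a was at 7.67 and 7.76 under ANE and at 7.69 and 7.44 under PLA, within the span of CIA T0. ANE minus CIA T0 was 0.16 for miR-101a and 0.11 for miR-101b, and PLA minus CIA T0, across slides, was 0.01 and -0.03. ANE minus NOCIA at 34 days was 0.18 and -0.07. All 6 adjusted p were 1.00, and 0% of miRNAs were called in the 3 comparisons, in which 6, 4 and 8 had an unadjusted p under 0.05. The change of MS to 34 days minus the change of NOCIA over the same time was 0.01 for miR-101a (SE 0.33, adjusted p = 0.988) and 0.22 for miR-101b (SE 0.23, interval -0.29 to 0.72, adjusted p = 0.595), with 0.476% of miRNAs called. At this precision the difference of miR-101b under MS was not distinguishable from that in healthy animals over the same time. The MS change lies across slides and the NOCIA change within 1, so arm and slide cannot be told apart here.

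**Figure D2:**
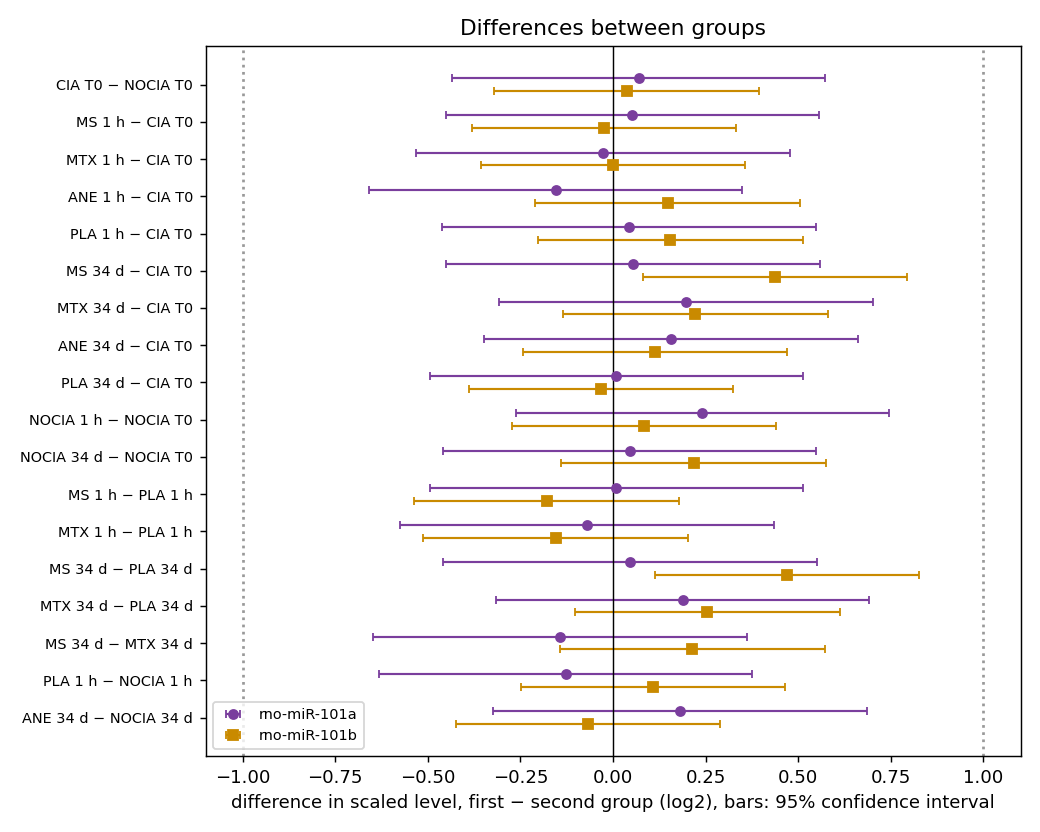
Difference in scaled level (log2, first group minus second) of rno-miR-101a and rno-miR-101b in 18 comparisons, with the 95% confidence interval from limma. Dotted lines mark 2-fold. The intervals of miR-101b exclude 0 in MS 34 d against CIA T0 and PLA 34 d, those of miR-101a in none, and no interval reaches 2-fold.

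Over the 19 comparisons, 10 of which lie within 1 slide, 0 of the 38 tests passed. miR-101b had an unadjusted p under 0.05 in 2 of them, named above, and miR-101a in 0. The comparisons with CIA T0 share its 2 arrays, whose levels of miR-101a were 7.85 and 7.26, so they are not independent of each other. Between 2 arrays and 2 others, no exact test can give a p under 0.333, and the p-values rest on the spread pooled over the 12 groups. The labels number the arrays as replicates without naming animals, so the p-values measure the spread between these samples.

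Neither member passed a test of the spread of the group means over all 12 groups. The F ratio, the variance between groups over that within them, was 0.39 for miR-101a and 1.74 for miR-101b. For miR-101a limma's F test had an adjusted p of 0.968, and a permutation of the group labels over the arrays gave p = 0.936 for the F ratio. For miR-101b the adjusted p was 0.506 and the permutation p = 0.156, which fell to between 0.0233 and 0.0378 under 4 other processings. Over all miRNAs 2.38% passed this F test. Within slides, where 105 arrangements allow an exact p down to 0.00952, miR-101a gave exact permutation p = 0.771, 0.752 and 0.714 on slides 1 to 3. miR-101b gave exact permutation p = 0.190, 0.648 and 0.390. With limma the smallest adjusted p within a slide was 0.277, for miR-101b on slide 1, which holds MS, MTX and PLA at 34 days and ANE at 1 hour. The share of all miRNAs passing was 0.476% on slide 1 and 0.952% on each of slides 2 and 3.

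The groups were also put in order of their mean level. For miR-101a the order from lowest to highest was ANE 1 h (7.40), NOCIA T0 (7.49), MTX 1 h (7.53), NOCIA 34 d (7.53), CIA T0 (7.56), PLA 34 d (7.57), PLA 1 h (7.60), MS 1 h (7.61), MS 34 d (7.61), ANE 34 d (7.71), NOCIA 1 h (7.73) and MTX 34 d (7.75). For miR-101b it was NOCIA T0 (8.13), PLA 34 d (8.13), MS 1 h (8.14), CIA T0 (8.17), MTX 1 h (8.17), NOCIA 1 h (8.21), ANE 34 d (8.28), ANE 1 h (8.31), PLA 1 h (8.32), NOCIA 34 d (8.35), MTX 34 d (8.39) and MS 34 d (8.60). None of the 22 steps between neighbours passed the test. The largest, from MTX 34 d to MS 34 d in miR-101b, was 0.21 (unadjusted p = 0.218, adjusted p = 0.445). Neighbours in an order made from the same means have the smallest gaps. These steps therefore cannot show whether groups further apart differ.

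Differences between the members within an array, which scaling an array by 1 factor cannot move, show whether their signals changed unequally. The part of any binding of a probe to the other member was not tested. The mean of miR-101b minus miR-101a (log2) was highest in MS at 34 days, at 1.16 and 0.82, and ANE at 1 hour followed at 0.95 and 0.87. The lowest mean was that of NOCIA at 1 hour, at 0.32 and 0.65. In MTX at 34 days the 2 arrays gave 0.97 and 0.30, the latter the lowest value of the series. In CIA T0 the values were 0.51 and 0.71 and in PLA at 34 days 0.49 and 0.65, below both MS arrays. Over the 12 groups the differences did not vary beyond the replicates (permutation p = 0.466 with 100000 resamples). Within slides 1, 2 and 3 the exact permutation p was 0.438, 0.352 and 0.724. Adjusted by Benjamini-Hochberg over the 12 permutation tests of both members and their difference, the lowest p was 0.842.

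**Figure D3:**
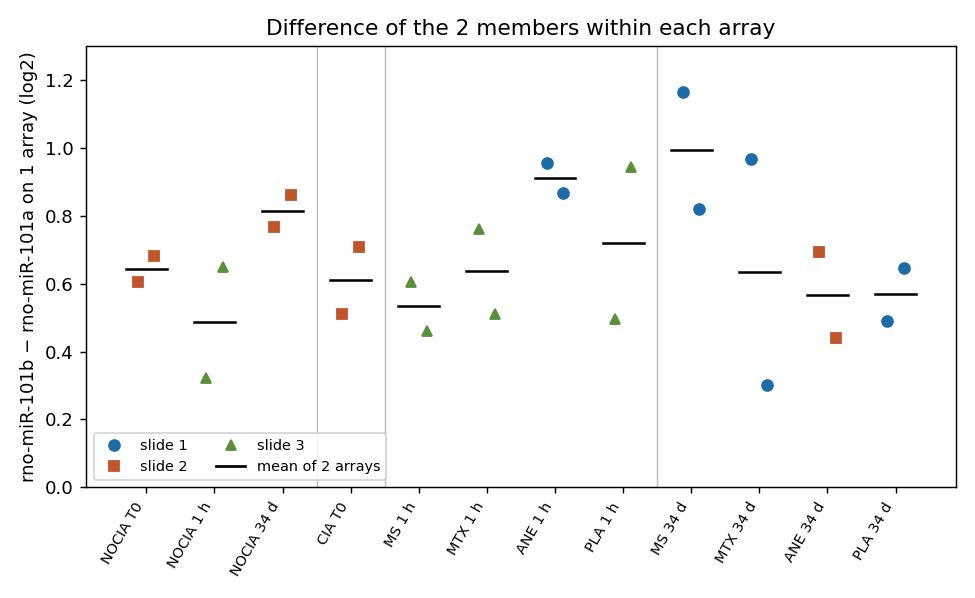
miR-101b minus miR-101a (log2 of total gene signal) on each array, by group, with the mean of 2 arrays as a bar and the slide as colour and symbol. MS 34 d has the highest mean, 0.99, and the 2 MTX 34 d arrays, at 0.97 and 0.30, span most of the range.

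Over the 24 arrays the signals of the members followed different miRNAs. Pearson's r between miR-101a and miR-101b was 0.31, which placed miR-101b 23rd of 131 among the miRNAs most like miR-101a, and it was 0.34, 0.69 and -0.15 on slides 1, 2 and 3. These correlations are descriptions, since the arrays share slides, groups and a common scaling. The miRNAs most like miR-101a were rno-miR-30e (r = 0.74), rno-miR-106b (0.68), rno-miR-142-3p (0.68), rno-miR-29b (0.67) and rno-miR-142-5p (0.65). Both strands of miR-142, a miRNA of all blood leukocytes, are among them. Those most like miR-101b were rno-miR-30a (r = 0.82), rno-miR-340-5p (0.81), rno-miR-19b (0.78), rno-miR-185 (0.77) and rno-miR-27a (0.77). The lists have no miRNA in common. The median r over the 131 miRNAs was -0.03 for miR-101a and 0.43 for miR-101b, so a high r with miR-101b was the more common. Within slides, r stayed at 0.87, 0.87 and 0.87 for rno-miR-30a with miR-101b and at 0.89, 0.58 and 0.82 for rno-miR-30e with miR-101a.

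The near relative rno-miR-144 varied far more than either member and did not pass the test in these comparisons. Its mean level (log2) was 9.05 ± 0.08 (SD, n = 2) in NOCIA T0, 7.87 ± 2.31 in CIA T0, 8.10 ± 0.28 in MS at 34 days, 8.96 ± 1.47 in MTX at 34 days and 9.11 ± 0.21 in PLA at 34 days. MS minus CIA T0 was 0.23 (SE 0.95, adjusted p = 0.909) and MS minus PLA -1.01 (SE 0.95, adjusted p = 0.427). Its r with miR-101a was 0.58 and with miR-101b 0.15.

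Among other miRNAs known to repress Ezh2, chosen as a list of 9, 7 were tested, and rno-miR-124 and rno-miR-214 were detected on 0 arrays. In MS at 34 days against CIA T0, 1 of the 7 was called higher and 0 lower, beside the 19% called over all miRNAs. This was rno-miR-26a, at 13.47 ± 0.28 against 12.86 ± 0.01 (SD, n = 2), a difference of 0.61 (SE 0.17, adjusted p = 0.0383). The median of the 7 was 0.20, beside 0.16 over all 210 miRNAs. The let-7 members of the list gave 0.20 (rno-let-7a), 0.12 (rno-let-7c) and -0.08 (rno-let-7b). Against PLA limma called 0 of the 7 and gave 1 an unadjusted p under 0.05, rno-miR-26a at 0.52 (adjusted p = 0.0622), with a median of 0.19 beside 0.21. In CIA against NOCIA at T0 and in MTX at 34 days against CIA, limma called 0 of the 7, with 1 unadjusted p under 0.05 in each, that of rno-let-7b, and medians of 0.01 and 0.09. Over all miRNAs limma called 0.952% and 0% in these, and 7.62% and 7.14% had an unadjusted p under 0.05. For MS against PLA the shares were 0% and 40%.

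Of 6 miRNAs known to act on Ptgs2, 5 were tested, and limma called 0 in any of these 4 comparisons. An unadjusted p under 0.05 was reached by 3 of the 5 in MS at 34 days against CIA T0, by 3 against PLA and by 0 in the others. Over all miRNAs 48.6% and 40% reached it in the first and second of these comparisons, and 19% and 0% were called. In CIA against NOCIA at T0 and MTX at 34 days against CIA, 7.62% and 7.14% reached it, and 0.952% and 0% were called. rno-miR-199a-3p was detected on 2 arrays and not tested. In MS at 34 days against CIA T0 the members went both ways. rno-miR-146a, which dampens signalling from innate immune receptors, gave -1.52 (SE 0.53, adjusted p = 0.0526) and rno-miR-143 gave 1.32 (SE 0.46, adjusted p = 0.0526). rno-miR-16 gave -0.41 (adjusted p = 0.172) and rno-miR-26b 0.11 (adjusted p = 0.543). rno-miR-542-3p gave 1.51 (adjusted p = 0.0802) and was detected on 10 of 24 arrays. The median of the 5 was 0.11.

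Markers of the cell types that PBMC can hold were read beside the members, since in bulk samples fewer cells of a type and less RNA per cell cannot be told apart. Of 14 marker miRNAs 12 are on the array under their names (rno-miR-155 and rno-miR-486 are not) and 10 were tested. The platelet miRNAs rno-miR-126* and rno-miR-199a-3p were detected on 2 arrays each and left untested. rno-miR-142-3p, found in all leukocytes, was detected on 24 of 24 arrays, as were the lymphocyte miRNA rno-miR-150 and the myeloid miRNA rno-miR-223. Their detection alone cannot tell PBMC from other preparations of blood leukocytes. rno-miR-451, the main miRNA of red blood cells, was detected on 24 of 24 arrays as well. Its mean level (log2) in CIA T0 was 13.37 ± 1.87 (SD, n = 2), beside 13.44 ± 0.40 for rno-miR-142-3p. Since probes bind with different strength, these levels do not compare amounts. In MS at 34 days against CIA T0, 1 of the 10 was called, beside 19% over all miRNAs. It was rno-miR-223, at 0.89 (SE 0.25, adjusted p = 0.0383).

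The other marker lists had no member past the test in that comparison. The summed scaled level of the 3 lymphocyte markers tested was 2041 and 7463 in MS at 34 days against 13780 and 15010 in CIA T0, with rno-miR-150 at -2.43 (SE 0.89, adjusted p = 0.0550). The pan-leukocyte pair summed to 11500 and 14560 against 9857 and 14780, which overlap, and its members gave -0.19 and 0.12. The platelet marker rno-miR-126 was at 105 and 192 against 59.3 and 67.0, and the erythroid pair summed to 4663 and 8725 against 4306 and 27060, which overlap. The liver miRNA rno-miR-122 was at or near the floor of 5.76 in both groups. In NOCIA at T0 it was at 212 and 217. It was the 1 marker of the 10 called in CIA against NOCIA at T0 (limma adjusted p = 0.00208), beside 0.952% over all miRNAs. Its part in that comparison of the members was not tested. Against PLA at 34 days, within 1 slide, MS had 0 of the 10 markers called, beside 0% over all miRNAs. The lymphocyte sums in MS were 2041 and 7463 against 12460 and 12870, and the erythroid sums 4663 and 8725 against 17700 and 18810. rno-miR-126 was at 105 and 192 against 40 and 83, and rno-miR-223 at 8678 and 12160 against 7140 and 8403. The pan-leukocyte sums, at 11500 and 14560 against 12010 and 13990, overlapped. The part of cell composition in the miR-101b differences was not tested.

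**Figure D4:**
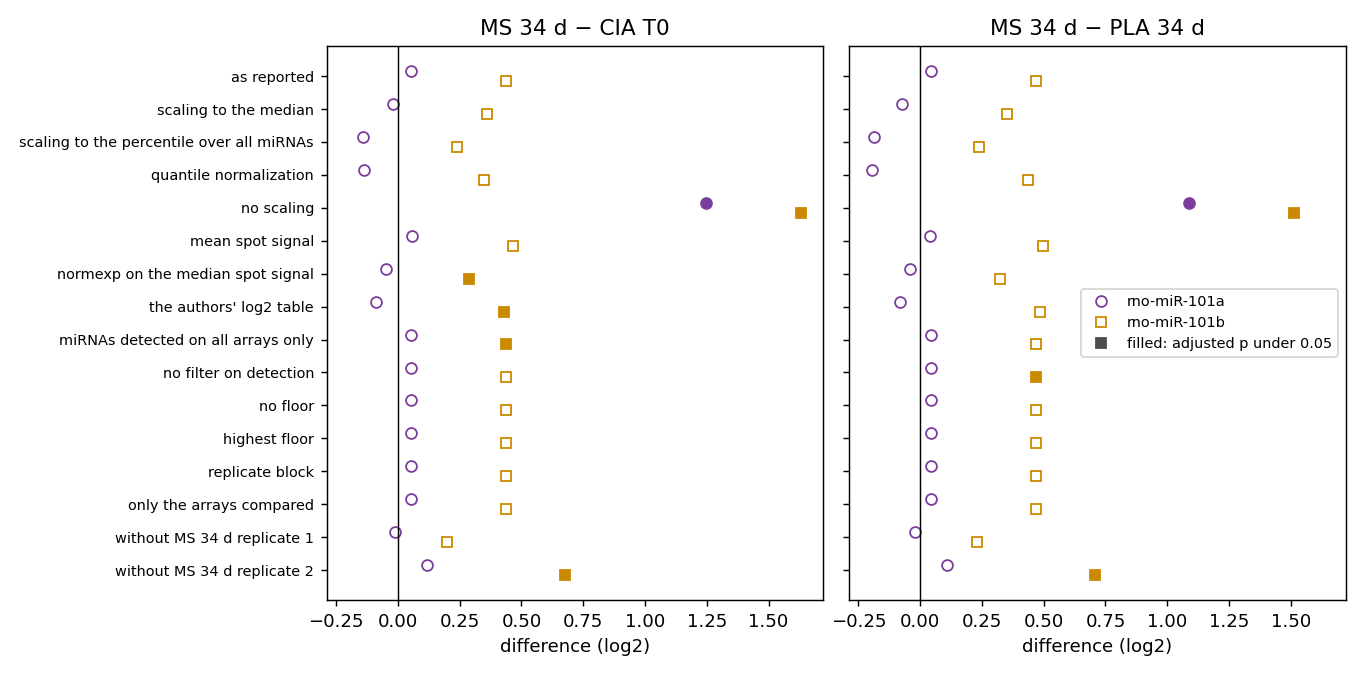
Differences of both members (log2) in MS at 34 days against CIA T0 and against PLA at 34 days, as reported and under 15 other processings, with filled symbols where the limma adjusted p was under 0.05. miR-101b stays above 0 throughout, between 0.20 and 1.63 against CIA T0, while miR-101a lies on both sides of 0.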

How the data were processed

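RNA of 24 rat PBMC samples was hybridised to one-colour Agilent rat miRNA arrays. Per the file headers the scans went through Agilent Feature Extraction (version 10.7.3.1). The deposited intensity values are background-corrected totals per miRNA, not normalised between arrays. The authors also deposited a table on a log2 scale, for which the submitters' processing notes name RMA. Its 24 columns each matched their own array best (r of at least 0.989), with medians from 2.89 to 2.91, and it was used as an alternative. In the study AgiMicroRna and limma were used, and miRNAs past a fold of 2 at an unadjusted p below 0.05 were called.

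Totals were scaled to an equal 75th percentile over the 132 miRNAs detected on all arrays (factors 0.452 to 1.42), floored at 5.76 and put on the log2 scale. With limma 3.58.1 (R 4.3.3), 12 group means were fitted to the 210 miRNAs seen on 3 arrays or more, leaving 12 residual degrees of freedom. Two-sided tests were used, with Benjamini-Hochberg adjustment over the 210, and a call is an adjusted p under 0.05. Permutation tests of the F ratio, one-sided by construction, used Python 3.11.15. Both scripts were tested on simulated data. The arrays lay on 3 slides of 8, with each group on 1 slide, so in a comparison across slides group and slide cannot be told apart.

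Named besides the members were the 5 miRNAs with the highest Pearson r to each, miR-144, and the listed Ezh2, Ptgs2 and cell type miRNAs. The members and lists were chosen with earlier results of these data known. For NOCIA at 34 days 1 label line names 1 hour, and the title was followed. The alternatives were other scalings, signals, filters and floors, a replicate block, the study's threshold, subsets of arrays, and leaving out each array. The number of arrays limits the precision.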

Additional observations from a re-analysis of the deposited data

How the results depend on the processing

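As reported, neither member passed the test in any comparison, and the study's threshold called 0 of the 38 as well. Of 1964 recomputed values, 1936 kept their side of the threshold, 20 gained a call and 8 turned in sign. A turn was counted where the reported difference exceeded its SE, and 111 differences changed sign when smaller ones are included, none of them a called value. miR-101b in MS at 34 days minus CIA T0 passed with no scaling (1.63), normexp on the median spot signal (0.29), the authors' log2 table (0.43) and only the miRNAs detected on all arrays (0.44, adjusted p = 0.0464). Over 13 alternatives its adjusted p ran from 0.0102 to 0.598, the latter with the percentile taken over all miRNAs, where the difference was 0.24, as it was against PLA (adjusted p = 0.628). MS at 34 days minus PLA passed for miR-101b with no scaling (1.51) and with no filter (0.47, adjusted p = 0.0133). With no scaling miR-101a passed in both, at 1.25 and 1.09. Without scaling, differences in summed intensity between arrays stay in the values by construction, and the highest sum was on MS at 34 days, replicate 1. The part of summed intensity in these calls was not tested.

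The permutation p of miR-101b over the 12 groups fell to 0.0233 with normexp, 0.0378 with the authors' table, 0.0369 with no scaling and 0.0297 with quantile normalization. On slide 3 it fell to 0.0191 (exact) with the authors' table and 0.0381 (exact) with the percentile over all miRNAs. That of miR-101a over the 12 groups fell to 0.0275 with no scaling. The difference of miR-101b in MS minus PLA at 1 hour turned to 0.65 (percentile over all miRNAs), 0.021 (median), 0.29 (no scaling), 0.093 (quantile), 0.068 (normexp) and 0.16 (authors' table). That of miR-101a in NOCIA at 1 hour minus T0 turned to -0.17 with the percentile over all miRNAs. The causes of these changes were not tested.

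With each array left out in turn, miR-101b in MS at 34 days ran from 0.20 to 0.67 against CIA T0, from 0.23 to 0.71 against PLA and from -0.024 to 0.45 against MTX, all extremes set by an MS array. Its permutation p ran from 0.0177 to 0.343 over the 12 groups and from 0.0286 to 0.524 (exact) on slide 1, where it was lowest without MS replicate 2. That of miR-101a on slide 2 ran from 0.0191 without CIA T0 replicate 1 to 0.905 (exact). A replicate block changed no call, with adjusted p of 0.0611 and 0.0703 for miR-101b in MS against CIA T0 and PLA. The labels do not say what a replicate number marks. Deviations of same-numbered arrays had a median r of -0.03 over the 66 pairs of groups, from -0.77 to 0.84, and 26 pairs were over 0.1.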
